A study of Mus musculus with 25 samples.

Results

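Fibroblasts sorted from the lungs of neutrophil-depleted mice were compared with fibroblasts sorted from control mice, with 3 RNA-seq libraries in each group, 6 of the 25 libraries of a study of lung and skin macrophages and fibroblasts. The depleted mice are labelled Mrp8_CRE; Rosa26_DTR and the controls Mrp8_WT; Rosa26_DTR, all on a C57BL/6 background. Mrp8 is the S100a8 gene, so Cre recombinase is made where the S100a8 promoter is active, mainly in neutrophils and to some degree in other myeloid cells, and Cre switches on a diphtheria toxin receptor that makes those cells sensitive to the toxin. Both groups carried the receptor allele, and every animal received diphtheria toxin, 10 µg per kg for 7 days by intraperitoneal injection. The sort kept living cells that carried PDGFRA on their surface and lacked CD45, CD31 and EPCAM. The age and sex of the mice, and whether animals were pooled, do not appear in the labels. Nothing in the labels says that the 3 libraries of a group came from separate animals, so the p-values measure the spread between these libraries, which may be technical.

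Lung fibroblasts build and maintain the connective tissue scaffold of the airways, vessels and alveolar walls. They secrete fibrillar collagens that bear load, type VI collagen that links cells to the fibres around them, and elastin with the microfibrils that give the lung its recoil. Fibroblasts of the alveolar wall also support the surfactant-producing type 2 epithelial cells, whereas adventitial fibroblasts surround vessels and airways. Neutrophils are short-lived white cells that are held in the lung capillaries in large numbers, and their proteases and inflammatory products can act on the surrounding stroma.

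The values are the authors' normalised expression values, in which 1 estimated read was worth 3.45 to 6.81 units in a fibroblast library. The fibroblast libraries were shallow, with 124075 to 269602 estimated reads each over 11867 genes, and 12.7 to 22.8% of the genes had no read in a given library. Of all genes, 57.7% averaged under 5 reads per library, and the median standard error of a log2 fold change was 0.64. Log2 fold changes are depleted over control, from limma on log2 of the value plus a pseudocount of 1.04, and calls required an adjusted p (Benjamini-Hochberg) below 0.05. Across 2963 genes, libraries of the same group correlated at Pearson r from 0.847 to 0.892 and libraries of different groups at 0.832 to 0.894, as a description.

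Markers of the sorted cell type were abundant in both groups. The receptor gene Pdgfra had values of 555, 689 and 761 in the depleted libraries and 575, 582 and 908 in the control libraries, with a log2 fold change of −0.02. The 16 fibroblast identity genes took 3.25, 3.10 and 2.08% of reads in the depleted libraries and 3.69, 3.10 and 2.77% in the control libraries, whereas macrophage libraries of the same lungs' table held 0.0538 to 0.0831%. Of the genes of the surface markers that the sort excludes, Ptprc and Epcam were scarce and Pecam1 was not. Ptprc, which encodes CD45, had 4 reads summed over the depleted libraries and 1 summed over the controls, and Epcam had 2 and 0. Pecam1, which encodes CD31, was measured at 143 reads summed over the depleted libraries and 129 summed over the controls, while the endothelial genes Cdh5, Tek and Tie1 had no more than 3 reads in either group. Other endothelial genes had more reads: Calcrl, an adrenomedullin receptor gene, had 12.01, 10 and 47 in the depleted libraries against 14, 10 and 8 in the control libraries, which overlapped, and Car4, a capillary carbonic anhydrase gene, had 3, 3 and 7 against 0, 0 and 2, which did not. Of the 14 endothelial genes measured, 9 had positive and 5 negative log2 fold changes (median 0.18) and none was called. The list took 0.0384 to 0.0543% of reads in the depleted libraries against 0.0345 to 0.0483% in the control libraries.

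Neutrophil transcripts were near the limit of detection in the fibroblast libraries of both groups. S100a8, the alarmin gene whose promoter drives Cre here, had 1, 0 and 4 reads in the depleted libraries and 1, 0 and 7 in the control libraries, and its partner S100a9 had 1, 0 and 0 against 1, 1 and 2. Retnlg, a resistin-like gene of mouse neutrophils, had no read in any of the 6 libraries. The 15 neutrophil genes measured took 0.00454 to 0.00707% of reads in the depleted libraries against 0.00215 to 0.00821% in the control fibroblasts, whereas the macrophage libraries held 0.167 to 0.199% and 0.859 to 1.78%. Among the lung macrophages, where 59 genes (0.497%) were called, S100a8 fell by 2.51 on the log2 scale (limma, adjusted p = 6.68e-08).

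Of the 11867 genes, 1 was called, which is 0.00843% of those tested, and it was higher in the depleted libraries; none was called lower. At an unadjusted p below 0.05 there were 600 genes, or 5.06%, with 325 higher (2.74%) and 275 lower (2.32%) in the depleted libraries. The values of the depleted libraries lay entirely above or below those of the control libraries for 1026 genes, or 8.65%, with 535 above (4.51%) and 491 below (4.14%). Over all genes 5848 log2 fold changes were positive and 6019 were negative, with a median of −0.01. A gene with no read in any library counted as negative, as Retnlg did with −0.06, since 0 reads stood for a different value in each library. Of the 2987 genes that averaged at least 10 reads, 1645 were positive and 1342 negative, with a median of 0.05.

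**Figure D1:**
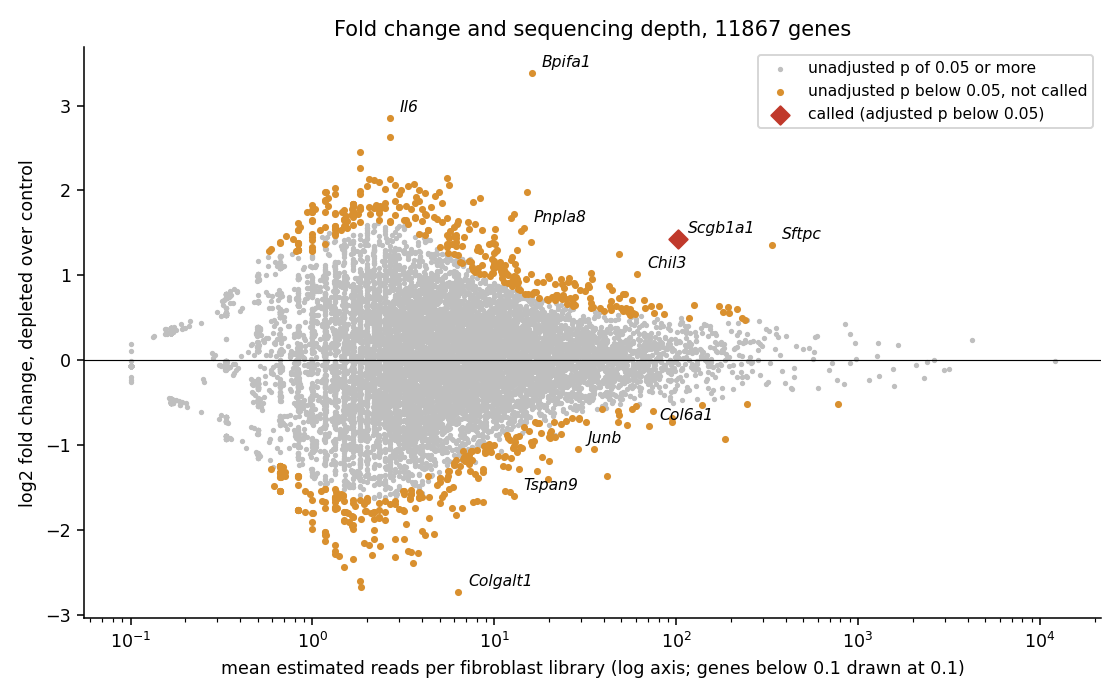
Log2 fold change (depleted over control) of each gene against its mean estimated reads per fibroblast library (log axis); the red diamond is the 1 called gene, orange points have an unadjusted p below 0.05 and grey points do not. Most large fold changes lie at a mean below 10 reads, whereas Scgb1a1 and Sftpc lie at high depth.

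The called gene was Scgb1a1 (ENSMUSG00000024653, chr19:9083636-9087958 in GRCm38), which encodes the secretoglobin released by club cells of the airway epithelium. Its values were 344, 539 and 1017 in the depleted libraries, from 50, 138 and 294 reads, and 210, 269 and 169 in the control libraries, from 38, 46 and 47 reads. All 3 depleted libraries lay above all 3 control libraries, with depleted library 3 the highest by a wide margin. Scgb1a1 rose by 1.43 ± 0.27 on the log2 scale (SE, limma, adjusted p = 0.00671). The call was lost without depleted library 3 (1.02, adjusted p = 0.994) and without control library 3 (1.27, adjusted p = 0.0528). It was also lost with a variance that did not depend on expression level (adjusted p = 0.922), with quantile normalization (0.846), with a filter of 10 reads in 3 libraries (0.529) and in a 4-group model with the macrophages (0.969). In bulk samples, fewer cells of a type and less RNA per cell cannot be told apart.

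No other epithelial gene was called. Sftpc, which encodes the surfactant protein C precursor of alveolar type 2 cells, had values of 1113, 1082 and 3818 in the depleted libraries and 925, 1361 and 216 in the control libraries. The groups overlapped, depleted library 3 was the highest and control library 3 the lowest, and the log2 fold change of 1.36 ± 0.30 was not called (adjusted p = 0.120). With both of those libraries left out, the log2 fold change of Sftpc was −0.032. Sftpc was called in 3 of the 6 fits with 1 library left out, namely without control library 1, control library 2 or depleted library 2, and also with voom and without the libraries numbered 1 or 2 of both groups. Sftpa1, a surfactant collectin gene, had the same extremes, with 180, 99.1 and 341 in the depleted libraries against 112, 141 and 51.5 in the control libraries. Bpifa1 (chr2:154142880-154149219), which encodes a secreted antimicrobial protein of the upper airway lining, had 0, 89 and 8 reads in the depleted libraries and none in the control libraries. With 3 reads set as the floor for a whole group, it was at least 29.7-fold higher, with 1 depleted library at 0 like the controls and nearly all reads in depleted library 2. It was not called (adjusted p = 0.357), except with voom and without the libraries numbered 1 of both groups. The airway oxidase gene Cyp2f2 had 3, 10 and 11 reads against 3, 6 and 1.

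Of 11 alveolar epithelial genes measured, 9 had positive and 2 negative log2 fold changes, with a median of 0.81, against −0.01 over all genes. Without the libraries numbered 3 of both groups the list's median was 0.088. Only 2 of these 11 genes, Sftpc and Sftpa1, averaged at least 10 reads, and 2 had no more than 3 reads in either group. Of 9 airway epithelial genes, 7 were positive with a median of 0.38 over the list, and 1 of them, Scgb1a1, was called. Of the same 9 genes, 2 had no more than 3 reads in either group, and the median over the 4 that averaged at least 10 reads was 0.79. General epithelial genes were barely detected, with 6 of 9 positive and none called. Krt19, a keratin of simple epithelia, had 4 reads summed over the depleted libraries and 0 summed over the controls, the adhesion gene Cdh1 0 and 2, and the junction gene Cldn18 7 and 21.

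The alveolar epithelial list took 0.163, 0.153 and 0.461% of reads in the depleted libraries and 0.130, 0.191 and 0.0359% in the control libraries. The airway list took 0.0572, 0.132 and 0.132% against 0.0444, 0.0547 and 0.0327%. In both lists the lowest library was control library 3, and the airway shares of the groups did not overlap. Macrophage libraries from the same table carried more of these transcripts, with alveolar shares of 0.827, 0.974 and 1.48% in the depleted libraries against 0.724, 0.695 and 0.196% in the control group. There too library 3 was the highest of the depleted and the lowest of the control group. The macrophage airway shares were 0.156, 0.138 and 0.837% in depleted and 0.231, 0.159 and 0.0585% in control libraries. The effect of depletion on Scgb1a1 was 1.43 in fibroblasts and 1.09 in macrophages, and the difference of 0.34 ± 0.69 was not called (limma interaction, adjusted p = 0.987). For Sftpc the difference was −0.05 ± 0.70 and for Bpifa1 −0.25 ± 1.51. The part of epithelial RNA in the fibroblast values of these genes was not tested.

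**Figure D2:**
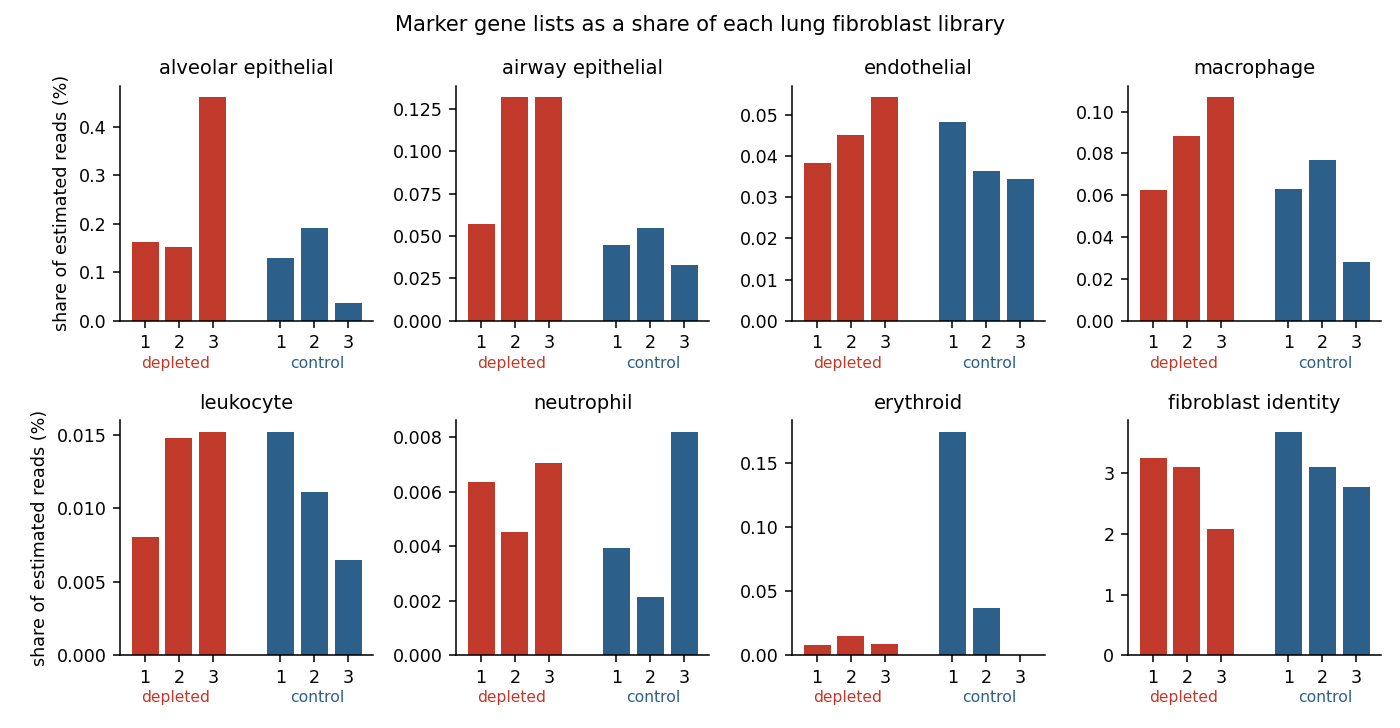
Share of estimated reads (%) taken by 8 marker lists in each fibroblast library, numbered 1 to 3, with depleted libraries in red on the left and control libraries in blue on the right of each panel; vertical scales differ. Alveolar epithelial genes are highest in depleted library 3 (0.461%) and lowest in control library 3 (0.0359%), and erythroid genes are highest in control library 1 (0.174%).

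Transcripts of macrophages and red cells also differed between libraries. Chil3, a chitinase-like gene of alveolar macrophages, had values of 267, 387 and 417 in the depleted libraries against 215, 262 and 90.9 in the control fibroblasts, with no overlap between the groups (log2 fold change 1.02 ± 0.28, adjusted p = 0.466). The lysozyme gene Lyz2 stood at 234, 321 and 525 against 262, 308 and 134, which overlapped. The macrophage receptor genes Csf1r, with 3 and 6 reads, and Mrc1, with 0 and 1, were near zero, and the macrophage list took 0.0625, 0.0882 and 0.107% against 0.0631, 0.0767 and 0.0280% of reads. Of its 12 members, 4 had positive and 8 negative log2 fold changes, but 6 had no more than 3 reads in either group, where the sign means little. The 2 members that averaged at least 10 reads were both positive. Globin transcripts of red cells varied more: the beta chain gene Hbb-bs had 4, 11 and 4.35 reads in the depleted libraries and 90.5, 18.9 and 0 in the control libraries. The control libraries thus held both the highest and the lowest globin level. Without control library 3, the globin genes Hba-a2 and Hbb-bs were the 2 genes called, both lower in the depleted libraries. The same 2 were called without the libraries numbered 3 of both groups. Hbb-bs and the other beta chain gene of the list, Hbb-bt, are near-identical copies whose reads can be split between them.

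Among the 12 genes named for the lowest p on the higher side, Il6 (chr5:30013114-30019981) and Bpifa1 were those with no read in any control library, and their upstream sequences are shown for that reason. Each run is the 250 bases before the RefSeq gene start on the plus strand of GRCm38.p6. In Il6, at chr5:30012864-30013113, capitals mark the letters GGGANTTTC of an NF-κB-type motif and a match, read on the opposite strand, to the C/EBP-type motif TTGCNNAA. In Bpifa1, at chr2:154142630-154142879, capitals mark the TATA box TATAAA.
Il6: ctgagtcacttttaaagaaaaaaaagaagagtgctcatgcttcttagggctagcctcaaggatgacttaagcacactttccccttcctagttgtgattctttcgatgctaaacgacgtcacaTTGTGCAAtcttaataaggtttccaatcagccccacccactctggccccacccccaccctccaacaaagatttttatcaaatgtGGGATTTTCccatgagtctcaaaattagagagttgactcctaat
Bpifa1: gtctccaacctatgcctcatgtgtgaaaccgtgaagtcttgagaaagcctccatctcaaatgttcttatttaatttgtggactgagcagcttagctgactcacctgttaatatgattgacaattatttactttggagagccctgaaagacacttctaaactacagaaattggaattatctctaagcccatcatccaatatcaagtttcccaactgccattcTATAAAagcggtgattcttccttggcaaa
Both strands were searched and no match overlapped another. Of 32851 RefSeq promoter windows of 250 bases, 0.941% held GGGANTTTC, 9.56% held TTGCNNAA and 12.4% held TATAAA. The match in Il6 to GGGANTTTC began 44 bases before the start, and that in Bpifa1 to TATAAA began 29 bases before it. These matches are descriptions of the letters and were not measured as bound sites.

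Il6 encodes interleukin 6, a cytokine that stromal and immune cells release in inflammation. It had 4, 3 and 9 reads in the depleted libraries and none in the control libraries, so the groups did not overlap at a depth of 16 reads in all. Il6 was at least 4.90-fold higher by the same floor, and its fitted log2 fold change was not called (adjusted p = 0.466), although voom on estimated reads called it. Of the 24 inflammatory mediators and receptors measured, 16 had positive and 8 negative log2 fold changes with a median of 0.14, and none was called. The receptor gene Tnfrsf1a, through which TNF signals, had a log2 fold change of −0.58 ± 0.35 and the adhesion gene Icam1 one of −0.68 ± 0.51. Among 15 chemokine genes, 7 were positive and 8 negative, and 5 of the 15 had no more than 3 reads in either group. Ccl5, a chemoattractant for T cells and monocytes, had 0, 0 and 2 reads in the depleted libraries against 6, 2 and 7 in the control libraries and its normalised values did not overlap.

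Interferon-stimulated genes had mostly positive fold changes at low depth. Of 30 measured, 24 were positive and 6 negative, with a median of 0.38, and none was called. Of the 30, 4 had no more than 3 reads in either group. Of the 10 that averaged at least 10 reads, 7 were positive and 3 negative, against 1645 positive of all 2987 genes of that depth. The medians at that depth were 0.29 for the list and 0.05 for all genes. Bst2, which encodes the antiviral membrane protein tetherin, had 98.7, 111 and 98.4 in the depleted libraries against 79.1, 43.3 and 44.6 in the control libraries, with no overlap (log2 fold change 0.92 ± 0.37, adjusted p = 0.969). Gbp3, a guanylate-binding GTPase gene, had 51.1, 25.3 and 60.4 against 24.6, 8.67 and 19.6, which also did not overlap. Ifi35 stood at 119, 71.9 and 102 against 104, 31.8 and 30.3. The summed share of the list gave no such order, with 0.563, 0.601 and 0.603% of reads in the depleted libraries against 0.607, 0.523 and 0.688% in the control libraries. Ifitm2 and Ifitm3, its members with the most reads, chosen after their values were seen, had log2 fold changes of −0.20 and −0.09. Of 10 genes of MHC class I presentation, 5 were positive and 5 negative.

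**Figure D3:**
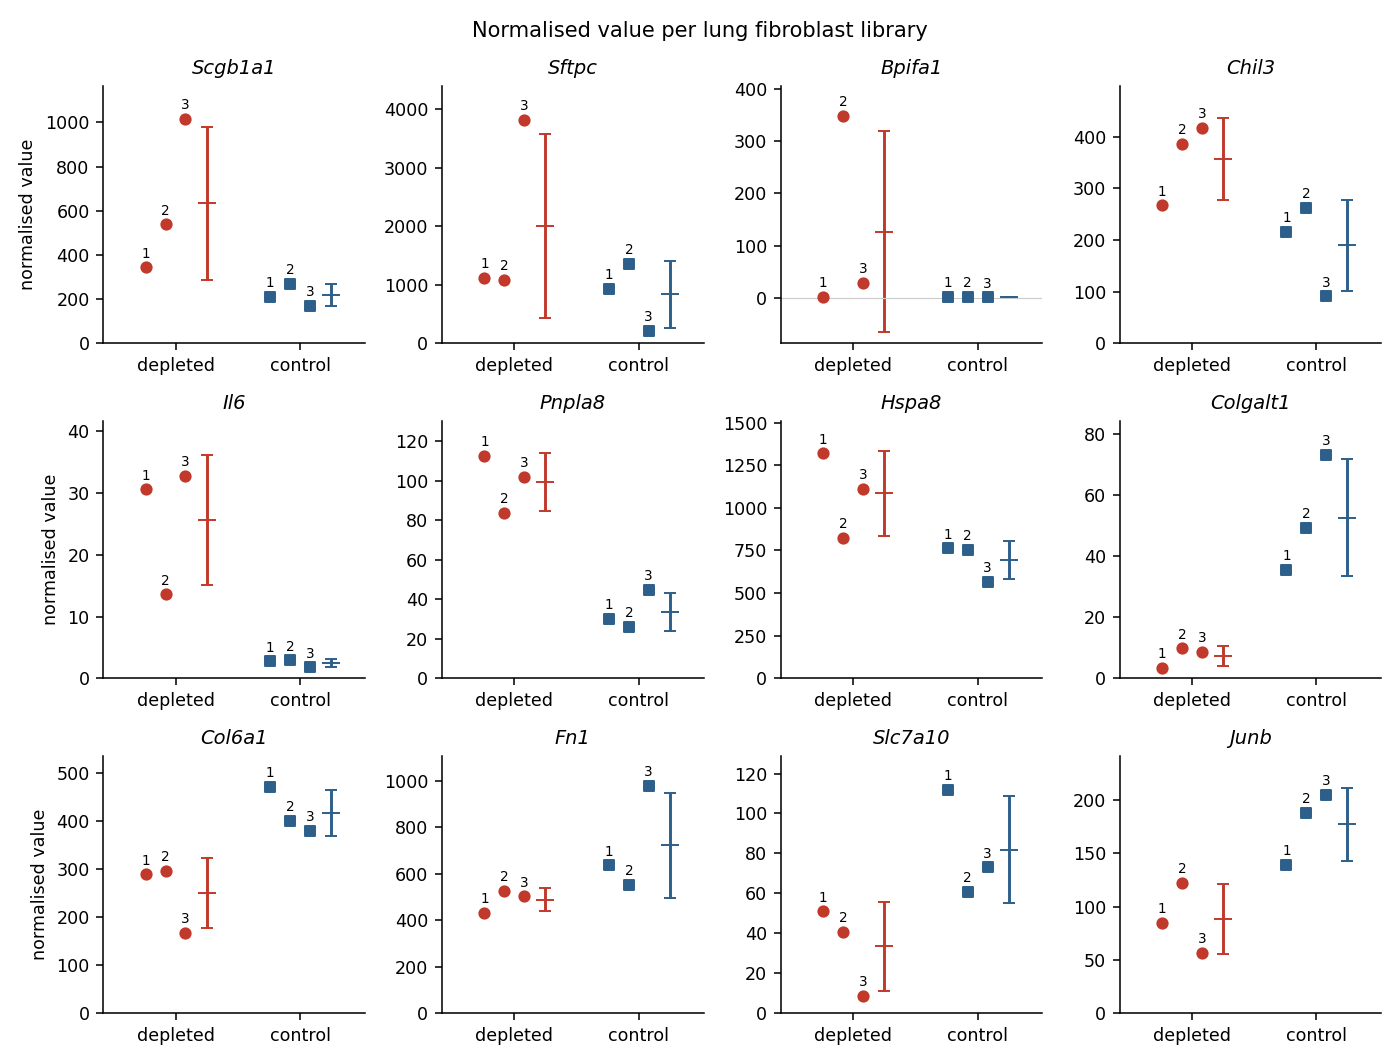
Authors' normalised values of 12 genes in each fibroblast library (points, numbered 1 to 3), with the mean and SD (n = 3) beside them; depleted libraries are red circles on the left and control libraries blue squares on the right, on scales that differ between panels. Scgb1a1, Chil3, Il6, Pnpla8 and Hspa8 lie higher in every depleted library, and Colgalt1, Col6a1, Fn1, Slc7a10 and Junb lie lower.

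No type VI collagen gene was called. For 2 of its 3 measured chains the groups did not overlap, and 4.14% of all genes lay wholly lower in the depleted libraries. The chains of this collagen assemble into beaded filaments close to the cell surface. Col6a1 (chr10:76708792-76726168) had values of 289, 297 and 167 in the depleted libraries against 472, 402 and 380 in the control libraries, and Col6a2, its neighbour on chromosome 10, had 187, 192 and 126 against 297, 251 and 278. Every depleted library lay below every control library for both chains, with log2 fold changes of −0.77 ± 0.26 and −0.73 ± 0.28 that were not called (adjusted p = 0.954 and 0.969). Col6a3 had 126, 169 and 126 against 270, 147 and 226, so the groups overlapped through control library 2. Of the 6 type VI and fibril-associated genes measured, 5 had negative log2 fold changes and the median was −0.65. The summed share of the list was 0.0741, 0.0854 and 0.0486% of reads in the depleted libraries against 0.123, 0.105 and 0.110% in the control libraries, which did not overlap.

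Fibrillar collagen genes, which encode the load-bearing types I, III and V, had smaller differences. Col1a2 stood at 714, 691 and 473 in the depleted libraries against 925, 731 and 893 in the control libraries, without overlap (log2 fold change −0.46 ± 0.24, adjusted p = 0.969). Col1a1 had 247, 224 and 113 against 352, 217 and 241 and Col3a1 732, 758 and 649 against 1196, 689 and 857, and in both the groups overlapped. The list had 4 of 6 members negative and a median of −0.17, and its median turned to 0.06 without the libraries numbered 3. Basement membrane genes showed no direction, with 9 of 16 positive and a median of 0.04, although Col4a1 had a log2 fold change of −0.85 ± 0.35.

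Genes that modify collagen in the cell or cross-link it outside had negative fold changes in 17 of 24 cases, with a median of −0.23 and no call. Of the 10 that averaged at least 10 reads, 7 were negative and 3 positive, with a median of −0.14, and 2 lay wholly lower. Colgalt1 (chr8:71610998-71624911), which attaches galactose to hydroxylysine of collagen, had the lowest p of any gene on the lower side. It had 0, 2 and 2 reads in the depleted libraries against 6, 8 and 20 in the control libraries, with values of 3.40, 9.72 and 8.63 against 35.5, 49.1 and 73.1. The groups did not overlap, and the log2 fold change was −2.73 ± 0.70 (adjusted p = 0.357). Fkbp10, a collagen chaperone of the endoplasmic reticulum, had 1, 5 and 3 reads against 4, 9 and 11. The cross-linking oxidase gene Loxl1 had values of 71.5, 56.4 and 36.3 against 112, 72.2 and 83.8, and the N-propeptidase gene Adamts2 had 17.0, 36.9 and 29.4 against 51.9, 43.3 and 54.9. P4ha1, named after its values were seen, was the last of the 5 of 24 members whose depleted libraries all lay below the controls, against 4.14% of all genes. The collagen chaperone gene Serpinh1, with 618 and 607 reads over the groups, had a log2 fold change of −0.06.

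Elastic fibre genes had 12 of 16 fold changes negative and a median of −0.22, with no call. Emilin1, which encodes a microfibril-associated glycoprotein, had 17.0, 52.5 and 32.8 in the depleted libraries against 67.8, 60.7 and 80.2 in the control libraries, without overlap (log2 fold change −1.13 ± 0.45, adjusted p = 0.969). Ltbp4, a latent TGF-beta binding protein needed for elastic fibres, stood at 534, 674 and 319 against 636, 586 and 799. Elastin itself, Eln, had a log2 fold change of −0.36 ± 0.27. Among 19 matrix glycoproteins, 9 were positive and 10 negative. Fn1, which encodes fibronectin, had 432, 527 and 503 in the depleted libraries against 636, 553 and 979 in the control libraries and did not overlap (−0.53 ± 0.24, adjusted p = 0.969), and the calcification inhibitor gene Mgp had 2381, 3358 and 2623 against 3616, 3248 and 5231. Proteoglycan genes had 10 of 15 negative, among them Podn with 30.7, 17.5 and 15.4 against 35.7, 66.4 and 42.8, while Omd had 85.1, 56.4 and 63.9 against 40.9, 20.2 and 51.7.

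**Figure D4:**
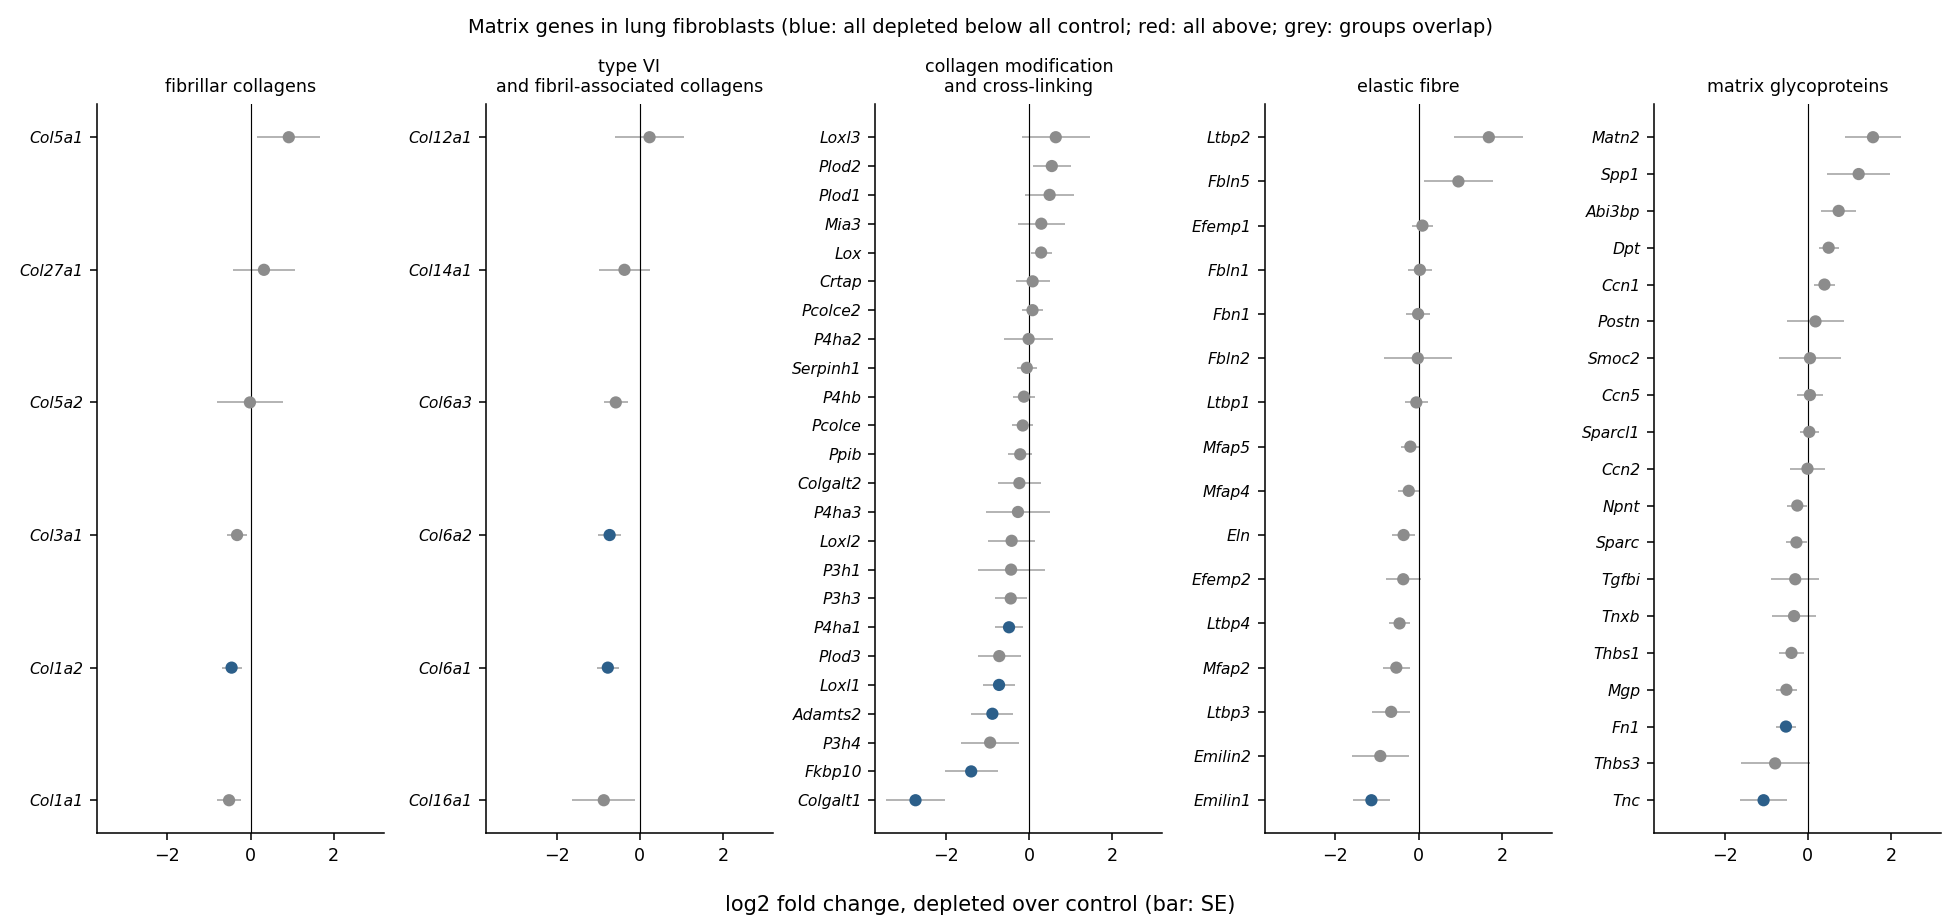
Log2 fold change (depleted over control; bars are SE from limma) of the measured genes of 5 matrix lists; blue marks genes whose 3 depleted libraries all lie below the 3 control libraries, red the reverse and grey an overlap. None of these genes was called; Col6a1 (−0.77), Col6a2 (−0.73) and Colgalt1 (−2.73) are blue.

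The fibrillar collagen, collagen modification and elastic fibre lists were mostly negative, whereas the basement membrane and matrix glycoprotein lists were nearly evenly split. The identity list of the sorted cells, which contains many matrix genes, was mostly negative too. Of its 16 members, 13 had negative log2 fold changes and 3 positive, with a median of −0.22, all averaging at least 10 reads. The depleted libraries all lay below the controls for 3 of the 16, Fn1, Col1a2 and Loxl1, against 4.14% of all genes. Depleted library 3 had the lowest identity share (2.08%) and the highest alveolar epithelial share (0.461%). Mitochondrially encoded genes took 5.81, 6.72 and 6.58% of reads in the depleted libraries against 7.46, 5.98 and 8.09% in the control libraries. The ribosomal RNA gene CT010467.1 had values of 594, 881 and 354 against 995, 1039 and 1225, a log2 fold change of −0.92 ± 0.25 (adjusted p = 0.386), and it overlaps the predicted gene Gm42418. The part of these RNA quality measures in the matrix values was not tested.

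Marker lists of fibroblast subtypes had medians near that of all genes. Of 17 alveolar fibroblast genes, 9 had positive and 8 negative log2 fold changes (median 0.14), and of 18 adventitial genes 9 each way (median 0.00). Slc7a10, an amino acid transporter gene of alveolar fibroblasts, had 51.1, 40.8 and 8.63 in the depleted libraries against 112, 60.7 and 73.1 in the control libraries, which did not overlap (−1.54 ± 0.47, adjusted p = 0.671). Gpc3, a heparan sulfate proteoglycan gene, stood at 709, 827 and 1079 against 1046, 1049 and 1681. The growth factor gene Fgf10, which acts on the epithelium, had 85.1, 99.1 and 88.1 against 84.6, 49.1 and 58.8, and control library 1 reached the level of depleted library 1. On the adventitial side Adh7 had 3, 10 and 3 reads against 1, 0 and 1, and the dermatopontin gene Dpt had 752, 554 and 606 against 559, 425 and 376. Genes of myofibroblasts and smooth muscle were sparse, with 6 measured and 4 negative.

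Signalling pathways gave list medians on both sides of zero and no called gene. Wnt pathway genes had 13 of 19 negative with a median of −0.40, which was −0.065 without control library 3. The receptor gene Fzd1 had 30.6, 130 and 43.2 in the depleted libraries against 62.8, 83.8 and 166 in the control libraries, and the secreted modulator gene Dkk3 had 126, 130 and 109 against 150, 159 and 201, without overlap. BMP pathway genes had 9 of 14 positive with a median of 0.16. The ligand gene Bmp5 had 91.4, 86.7 and 73.7 against 73.1, 26.0 and 59.3, and the groups did not overlap. TGF-beta pathway genes had 10 positive and 14 negative, with a median of −0.06, and the co-receptor gene Tgfbr3 had 317, 251 and 288 against 150, 165 and 319. In the hedgehog pathway, which had 7 genes measured, Hhip had 0, 5 and 6 reads against 8.23, 3 and 13.4.

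Heat shock genes took 0.443, 0.386 and 0.422% of reads in the depleted libraries against 0.309, 0.354 and 0.304% in the control libraries, which did not overlap, and none was called. Hspa8, the constitutive HSP70 chaperone gene, had 1320, 824 and 1112 in the depleted libraries against 762, 754 and 566 in the control libraries, and Hsp90ab1 had 1059, 1028 and 1384 against 794, 731 and 735. Both were higher in every depleted library than in any control library (log2 fold changes 0.63 ± 0.24 and 0.61 ± 0.23, adjusted p = 0.969 for both). The inducible gene Hspa1a had a log2 fold change of −0.53 ± 0.67 and the mitochondrial co-chaperonin gene Hspe1 one of −0.50 ± 0.33. The heat shock list had 6 members each way with a median of 0.18, which was −0.037 without the libraries numbered 1 of both groups. Across the list 3 members lay wholly higher and 1 wholly lower in the depleted libraries, against 4.51% and 4.14% of all genes. Over the 8 members that averaged at least 10 reads the median was 0.39, against 0.05 over all genes of that depth. Of the 24 immediate-early genes, which respond within minutes to tissue dissociation, 10 were positive and 14 negative (median −0.08). Junb, a subunit of the AP-1 transcription factor, had 85.1, 122 and 57.0 in the depleted libraries against 139, 188 and 205 in the control libraries, without overlap (−1.05 ± 0.32, adjusted p = 0.654). Fos, its partner, had a log2 fold change of −0.33 ± 0.24.

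**Figure D5:**
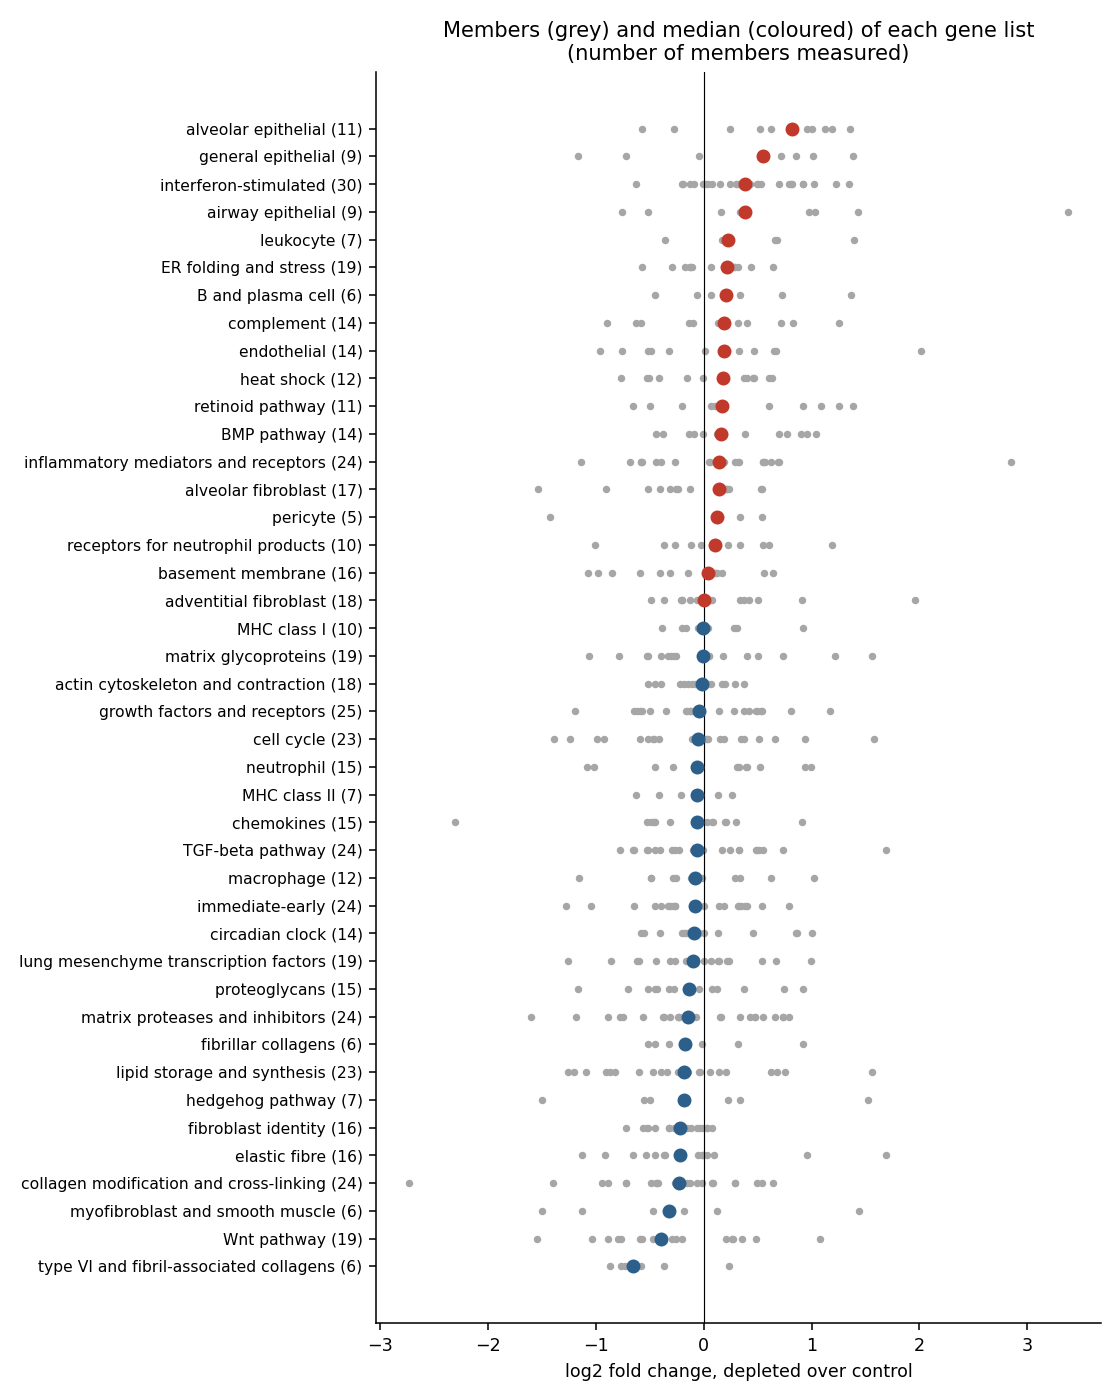
Log2 fold change (depleted over control) of each measured member (grey) and the median (red above 0, blue at or below 0) of the gene lists with at least 5 measured members, whose numbers stand in parentheses. Medians run from 0.81 for alveolar epithelial genes to −0.65 for type VI and fibril-associated collagens, and the members of most lists lie on both sides of 0.

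Other genes with the lowest p were not called. Picking genes by p favours groups that do not overlap, so a gap between the groups adds no support for the genes named here. On the higher side Pnpla8, a calcium-independent phospholipase gene, had 112, 83.6 and 102 in the depleted libraries against 30.0, 26.0 and 44.6 in the control libraries, well apart (log2 fold change 1.56 ± 0.41, adjusted p = 0.357). Dnttip2 had a log2 fold change of 1.67 and Rtcb, the ligase gene of tRNA splicing, one of 1.40, and in both the groups did not overlap. The water channel gene Aqp1, which lung endothelium also expresses, had 7, 14 and 20 reads against 1, 3 and 4.99. Dynlt1b, Phactr2 and Cfhr2 had log2 fold changes of 1.73, 1.03 and 1.53, and the last 2 overlapped between groups. Dynlt1b belongs to a family of near-identical copies and Cfhr2 to one of related genes, so their reads are uncertain.

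On the lower side Tspan9, a tetraspanin gene, had 37.4, 33.04 and 22.4 in the depleted libraries against 90.1, 101 and 90.9 in the control libraries, well apart (−1.60 ± 0.42, adjusted p = 0.357). Scarf2, Gapvd1, Sacm1l and the transcription factor gene Zbtb16 had log2 fold changes of −1.40, −1.55, −1.67 and −1.18. None of these 4 overlapped between groups, which their choice by p favours, and 4.14% of all genes lay wholly lower. Pgpep1, Tsr1 and the lipid transporter gene Abca7 had no read in the depleted libraries, against sums of 11.03, 11 and 9 reads over the control libraries. By the same floor they were at least 4.01-fold, 3.99-fold and 3.27-fold lower. Of the lipid genes, 16 of 23 had negative fold changes, but of the 7 that averaged at least 10 reads 3 were positive and 4 negative. Lipoprotein lipase, Lpl, had 74.6, 55.5 and 105 against 185, 130 and 112 and was the 1 member wholly lower. Pnpla8, described above, was the 1 member wholly higher.

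The effect of depletion was also compared between fibroblasts and lung macrophages of the same table, in a model of all 12 lung libraries. Of 11867 genes, 2 were called for a difference, or 0.0169%, and 653 had an unadjusted p below 0.05, or 5.5%. The called genes were G0s2, which encodes an inhibitor of the lipase that breaks down lipid droplets, and Ptgs2, which encodes the inducible cyclooxygenase. G0s2 had values of 371, 286 and 575 in depleted and 385, 402 and 258 in control fibroblasts, which overlapped, while the macrophage means were 94.3 ± 16.9 with depletion and 808 ± 199 without it (SD, n = 3 each). Neutrophil genes took 0.167 to 0.199% of reads in the depleted and 0.859 to 1.78% in the control macrophages. There S100a8, Retnlg and Cxcr2 had log2 fold changes of −2.51, −2.81 and −2.94, beside −3.07 for G0s2. The part of neutrophil RNA in the macrophage values of G0s2 and Ptgs2 was not tested. Ptgs2 had 4 reads in all depleted fibroblasts together and 1 in the controls, and it fell by 4.20 on the log2 scale in macrophages (limma, adjusted p = 4.91e-10). With 1 read in the control fibroblasts Ptgs2 could not fall there, so its call restates the macrophage fall and shows no difference in how fibroblasts respond. The effects of depletion on Il6 and Colgalt1 in fibroblasts and macrophages differed by 2.41 ± 0.98 and −2.52 ± 0.73, and neither difference was called (adjusted p = 0.849 and 0.600).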

How the data were processed

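Sorted lung fibroblasts and macrophages were profiled by single-end RNA-seq from a single-cell kit, per the labels' protocols. The submitters' processing notes name CASAVA 1.8, cutadapt 1.7.1, RSEM 1.7.1 and limma 3.46 with the mm10 build, without their roles. The lung table holds a normalised signal that the authors deposited for each gene and library. In each library these values equalled estimated reads plus 0.5, times a library constant, so estimated reads were recovered from the lowest value. Of these, 71.8 to 82.1% were whole within 0.01, so the main fit used no count model. Voom on the estimated reads was run only as an alternative. A 0.5-read offset was removed before overlap between groups was judged.

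Values were tested on log2(signal + 1.04) with limma 3.58.1 in R 4.3.3, with a variance trend, over the 6 fibroblast libraries and all 11867 genes, with Benjamini-Hochberg adjustment. The pseudocount was 1 ppm of the mean library total, and fold changes of low genes are understated. The difference between cell types came from a 4-group model of 12 lung libraries. The fit was checked on simulated data. Gene symbols were matched for 11829 IDs with GENCODE; upstream sequences come from RefSeq GRCm38.p6.

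The members and gene lists were chosen with earlier results of these data known. Named genes were every called gene, the 12 lowest p values on each side with predicted genes passed over, up to 4 members of each list with the lowest p, the sort and neutrophil genes, and 5 per direction for the difference between cell types. Not all of the 5 per direction are described. Differences between cell types were also given for Scgb1a1, Sftpc, Bpifa1, Il6 and Colgalt1, which were named by their p in fibroblasts and not by that rule. Other list members that complete a count, such as P4ha1, were chosen after their values were seen. Alternatives covered the pseudocount, the filter, scaling, the variance model, the libraries fitted, the replicate block and each library left out. One of the list members is not reported here.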

Additional observations from a re-analysis of the deposited data

Results flagged for a closer look

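The interaction term of limma over 12 libraries, which compares the effect of depletion in lung fibroblasts with that in lung macrophages, was called for 2 genes. For G0s2, which was expressed in both cell types, the log2 fold change in fibroblasts minus that in macrophages was 3.27 ± 0.41 (SE, adjusted p = 9.75e-05), with 0.20 ± 0.26 in fibroblasts and −3.07 ± 0.27 in macrophages. G0s2 was called in all 12 fits with 1 library left out. In the same macrophages the neutrophil gene Retnlg had a log2 fold change of −2.81, and the part of neutrophil RNA in the G0s2 value was not tested. For Ptgs2 the term was 4.90 ± 0.85 (adjusted p = 0.0175), but it had 4 reads over the depleted and 1 read over the control fibroblasts, too few for a fall to be seen there, so the value restates the fall in macrophages. Ptgs2 was called in 7 of 12 fits with 1 library left out, and not without depleted fibroblast library 3, depleted macrophage library 3 or any 1 of the control macrophage libraries.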

How the results depend on the processing

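The count of genes called in fibroblasts, 1, was 0 with a filter of 10 estimated reads in 3 libraries, with quantile normalization, with no variance trend and in the 4-group model, where 146, 612, 592 and 545 genes had an unadjusted p below 0.05 (limma). It was 4 with voom on estimated reads (Scgb1a1, Sftpc, Bpifa1 and Il6), 3, 7 and 2 without the libraries numbered 1, 2 and 3 of both groups, and 0 to 7 with 1 library left out; the 0 came without depleted library 3, with 540 genes at an unadjusted p below 0.05. The replicate block called 4 genes, among them Scgb1a1 and Sftpc; the library numbers were not taken as pairing, since same-numbered libraries deviated with r of 0.055, −0.073 and −0.016. Scgb1a1 kept its direction throughout, with log2 fold changes of 1.02 to 1.8 over the 6 fits with 1 library left out. The count of genes called for a difference between cell types, 2, was 4 at an adjusted p of 0.10, 12 with a pseudocount of 10 ppm, 5 with the filter, 1 with no further pseudocount, quantile normalization or voom, 0 with no variance trend, 1, 1 and 0 without the libraries numbered 1, 2 and 3, and 1 to 6 with 1 library left out; the 6 came without depleted fibroblast library 2. Ptgs2 was the call lost with no further pseudocount, quantile normalization and voom, and both calls were lost with no variance trend. With 1 library left out Ager ranged from −0.10 to 2.15 and C7 from −0.069 to 1.19, both lowest without control library 3, and without the libraries numbered 3 Sftpc had −0.032, Ager −0.20, Lyz2 −0.054 and C7 −0.089, all positive with every library in; the cause was not tested. Over the tested genes, 2486 values kept direction and call, 22 gained and 21 lost a call and 6 turned. With 1 library left out, list medians ran from 0.54 to 0.99 for alveolar epithelial, 0.32 to 0.74 for airway epithelial, −0.58 to −0.065 for Wnt, −0.80 to −0.45 for type VI and fibril-associated, −0.42 to −0.077 for fibrillar collagen, −0.31 to −0.075 for elastic fibre, 0.29 to 0.44 for interferon-stimulated and 0.042 to 0.19 for heat shock genes. Apart from the medians over members that average at least 10 reads, an alternative chosen after seeing the data, 994 medians moved by less than the replicate spread and 78 by more. The part of depth in the number of calls was not tested; 57.7% of genes averaged under 5 reads.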
